A study of Drosophila melanogaster with 13 samples.

Results

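Phototransduction is the process by which the photoreceptors of the fly eye turn light into an electrical signal, and the visual cycle makes and renews the retinal chromophore on which it depends. In 10 RNA-seq libraries of adult *Drosophila melanogaster* heads, 39 named genes of these 2 systems were examined by their FlyBase symbols. Of these, 36 were matched to 1 each of the 15682 gene rows of the count data, 35 by symbol and *CdsA* as a synonym of *Cds*. *Ggamma30A*, *rdgC* and *chp* were not matched and were not analysed here. All 36 matched genes passed the minimum of 10 counts summed over the libraries in each comparison.

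The libraries come from 2 experiments on histone methyltransferases, the H3K4 methyltransferase trr and the H3K9 methyltransferase G9a, and set the effects of losing each in the head side by side. In the first, 2 controls carried 1 copy each of *Elav-Gal4*, *dicer2* and the empty landing site *P{y[+t7.7]=CaryP}attP2*, and 2 libraries labelled *trr* knockdown carried *Elav-Gal4*, *dicer2* and the hairpin *P{TRiP.HMS01019}attP2*. In the second, 3 controls were *G9a+/+*, a precise excision, and 3 libraries were labelled *G9aDD1*, a mutant allele. Per the labels the flies were adults of 0 to 5 days, while the methods of the study start the range a day later. RNA was taken from pooled frozen whole heads, so the knockdown, which *Elav-Gal4* directs to neurons, was read together with every other cell of the head. Photoreceptors are neurons and belong to the cells in which *elav* is active. The driver and *dicer2* are therefore shared by both *trr* groups and absent from both *G9a* groups. The sex of the flies was not given in the sources used here. The labels call the libraries of a group biological replicates.

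In the fly eye, light isomerizes the chromophore of a rhodopsin, which activates a Gq protein, and Gq activates the phospholipase C encoded by *norpA*. Cleavage of the membrane lipid PIP2 then opens the TRP and TRPL channels, while arrestins bind and silence the activated rhodopsin. Each ommatidium holds outer photoreceptors with the major rhodopsin and inner photoreceptors with colour opsins, and photoreceptors signal to the brain with histamine.

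Gene counts per library ranged from 18114408 to 28171883, and levels are given below as CPM, counts scaled to a library total of 1000000 gene counts, which compare a gene between libraries and not 1 gene with another. The count of *trr* was 1964 and 2589 in its controls and 2651 and 2265 in the libraries labelled knockdown, and the count of *G9a* was 1087, 1208 and 1011 in its controls and 1526, 1732 and 1547 in the libraries labelled mutant. Neither count was reduced where the label says the gene was lost, and a count over a whole gene does not separate a deleted part from the rest, so the word labelled is used here and every direction rests on these labels. The study checked the knockdown by RT-qPCR on a separate sample and reports less *trr* RNA in whole heads, a measurement that was not analysed here. The 2 libraries labelled *trr* knockdown were more alike than any other replicate pair, with 21.0% of genes differing beyond counting noise against 37.5 to 57.2% elsewhere. They were kept as 2 samples, as labelled, but differing beyond counting noise does not show that they come from separate pools of heads. The *trr* comparison and the difference of effects rest in part on this narrow spread. Together the 36 genes took 7.17, 7.98 and 7.67% of the gene counts of the *G9a* controls, against 9.61, 10.06 and 10.16% for heads labelled *G9a* mutant. In the *trr* controls they took 9.48 and 10.51%, and in heads labelled *trr* knockdown 9.89 and 9.83%.

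In the *G9a* experiment, some genes of several roles were higher in the heads labelled mutant, while other genes of the same roles were not. The higher ones included genes for colour opsins, rhodopsin maturation, an arrestin, the TRPL channel, a rhabdomere protein and histamine synthesis. A gene was called where its fold change was over 1.5 and its p-value in edgeR's quasi-likelihood test, adjusted over the whole table, was under 0.05. Of the 36 genes, 8 were called higher (22.2%), against 1.99% of the 12329 genes tested, and 0 were called lower, against 5.57%. DESeq2 called the same 8 higher, and *ninaD* and *santa-maria* lower. The 8 were *Rh5*, *ninaA*, *Arr1*, *trpl*, *prom*, *Rh3*, *Hdc* and *ninaG*, with folds of up to 1.91. By the adjusted p-value alone, *ninaE* and *ninaB* were higher as well, which makes 10 of 36 against 3.64% of all genes. Every library labelled mutant was above every control for 18 of the 36 genes, against 17.0% of all genes, and below every control for 3, against 15.1%. The median log2 fold change over the 36 was 0.22, and over all genes tested it was 0.04. In bulk heads, fewer cells of a type and less RNA per cell cannot be told apart, and the same holds for more of either.

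*Rh5* and *Arr1* were called under all 15 other settings tried, *trpl* and *prom* under 14, *ninaA* under 12, and *Rh3*, *ninaG* and *Hdc* under 10. With the replicate number as a block, all 8 were called again, and *ninaD* and *santa-maria* were called lower. Without the first control 4 of the 36 were called, and without the second control or the third library labelled mutant 5 were. In the Release 6 table *ninaA*, *trpl*, *prom* and *Hdc* overlap other genes, *CG15824*, *CG1690*, *CG42383* and *CG12209* among them. Other members, such as *Rh4*, *Arr2*, *ninaB*, *eys*, *santa-maria* and *Pdh*, overlap genes as well. The counting set reads that fall in more than 1 gene aside as ambiguous, 1.58 to 2.55% of a file. Counts of overlapping genes can therefore miss reads, and how many was not tested.

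Among the rhodopsins, *ninaE* encodes the major rhodopsin of the outer photoreceptors. Its level was 25339.8, 32642 and 32835 CPM in the *G9a* controls and 42064, 44013 and 43998 CPM in heads labelled *G9a* mutant. The groups did not overlap, and the first control was the lowest library. The difference passed the test on its adjusted p-value but not the fold threshold (log2 fold change 0.49, SE 0.11, adjusted p = 0.029). In the *trr* controls *ninaE* stood at 50457 and 54989.8 CPM and in heads labelled *trr* knockdown at 52062 and 51595 CPM, with both knockdown values between the controls (log2 fold change -0.022, SE 0.11, adjusted p = 0.93). Without *ninaE*, the other 35 genes took 4.39 to 4.72% of gene counts in the *G9a* controls and 5.40 to 5.76% in heads labelled *G9a* mutant.

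*Rh3* and *Rh4* encode the ultraviolet-sensitive opsins of the inner photoreceptors R7, which fall into the pale and the yellow class of ommatidia. *Rh3* was at 714, 812 and 976 CPM in the *G9a* controls and rose to 1318, 1093 and 1522 CPM in heads labelled *G9a* mutant (log2 fold change 0.62, SE 0.16, adjusted p = 0.043). The lowest of these lay above the highest control. *Rh4* was at 1154, 1166 and 1146 CPM in the *G9a* controls and at 1068, 1144 and 1177 CPM in heads labelled *G9a* mutant, overlapping groups whose difference had a 95% interval of -0.26 to 0.12 on the log2 scale. The *trr* libraries held 819.8 and 877 CPM of *Rh3* in the controls and 874 and 847 CPM in heads labelled *trr* knockdown, which lay within the span of the controls. *Rh4* was at 1748 and 1968 CPM in the controls and 1452 and 1517 CPM in heads labelled *trr* knockdown, below both controls but short of the threshold (log2 fold change -0.32, SE 0.11, adjusted p = 0.21).

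*Rh5* and *Rh6* encode the blue-sensitive and the green-sensitive opsin of the inner photoreceptors R8, again of the pale and the yellow class. *Rh5* was at 285, 314 and 331 CPM in the *G9a* controls and at 606, 578 and 638 CPM in heads labelled *G9a* mutant, a 1.91-fold rise with widely separated groups (log2 fold change 0.94, SE 0.094, adjusted p = 0.00075). It had the highest log2 fold change of the 36 genes. *Rh6* was at 462, 534 and 481 CPM in the *G9a* controls and 509, 534 and 524 CPM in heads labelled *G9a* mutant, with overlapping groups and an interval of -0.15 to 0.25 on the log2 scale. Among the *trr* libraries, *Rh5* was at 467 and 427 CPM in the controls and 368 and 397 CPM in heads labelled *trr* knockdown, lower in both (log2 fold change -0.22, SE 0.088, adjusted p = 0.25). *Rh6* was at 842 and 1008 and 964 and 954 CPM in the same 2 groups, where both knockdown values lay between the controls.

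*Rh2*, the opsin of the ocelli, was at 129, 164 and 151 CPM in the *G9a* controls and 146, 112 and 105 CPM in heads labelled *G9a* mutant, with overlapping groups (log2 fold change -0.32, SE 0.15, adjusted p = 0.22). It was at 341 and 313 CPM in the *trr* controls and 371 and 357 CPM in heads labelled *trr* knockdown. All 4 libraries of the *trr* experiment were above all 6 of the *G9a* experiment.

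**Figure D1:**
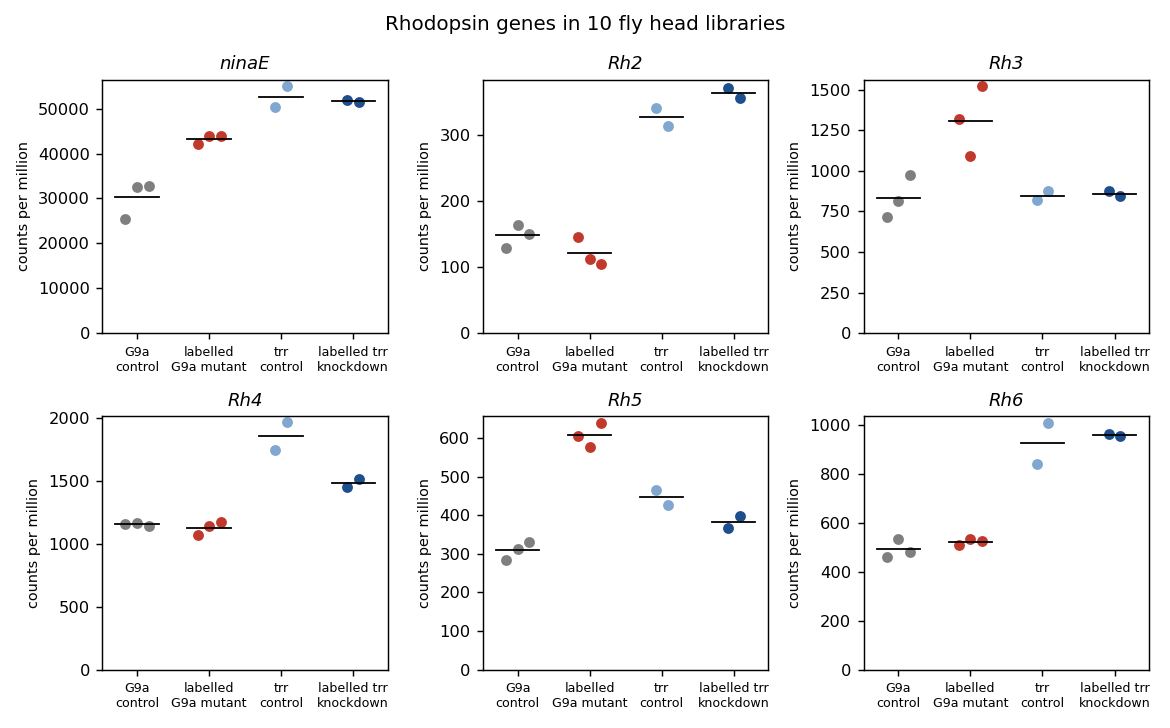
Levels of the 6 rhodopsin genes in CPM (y axis, linear from 0) in each of the 10 libraries (points), with the mean of each group as a black line. *Rh3* and *Rh5* lie higher in the 3 libraries labelled *G9a* mutant than in the 3 *G9a* controls, while *Rh4* and *Rh6* overlap between these groups.

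In pale ommatidia *Rh3* goes with *Rh5*, and in yellow ommatidia *Rh4* goes with *Rh6*. The ratio of *Rh3* to *Rh4* counts within a library was 0.618, 0.696 and 0.852 in the *G9a* controls and 1.23, 0.956 and 1.29 in heads labelled *G9a* mutant, and every value of the second group lay above the first. The geometric means were 0.716 and 1.15, a 1.61-fold difference (two-sided exact permutation test, p = 0.1, the smallest that 3 against 3 allows, and 0.2 after Benjamini-Hochberg adjustment over the 4 ratio comparisons). The ratio of *Rh5* to *Rh6* was 0.618, 0.588 and 0.689 in the *G9a* controls and 1.19, 1.08 and 1.22 in heads labelled *G9a* mutant, again without overlap. Its geometric means were 0.630 and 1.16, a 1.84-fold difference (two-sided exact permutation test, p = 0.1, adjusted 0.2). Both opsins of the pale pair thus stood higher relative to the yellow pair in the heads labelled mutant. Since raw counts depend on transcript length, a ratio of 1 is not a reference value, and only the change of a ratio between groups is read.

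With *trr*, the ratio of *Rh3* to *Rh4* was 0.469 and 0.446 in the controls and 0.602 and 0.558 in heads labelled *trr* knockdown, and that of *Rh5* to *Rh6* was 0.554 and 0.424 and 0.382 and 0.416. Here the first ratio was higher and the second lower in the libraries labelled knockdown, and neither pair of groups overlapped. With 2 against 2, the two-sided exact permutation test gave p = 0.333 for each, the smallest it can give. The plot of paired colour opsins shows both ratios library by library.

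**Figure D2:**
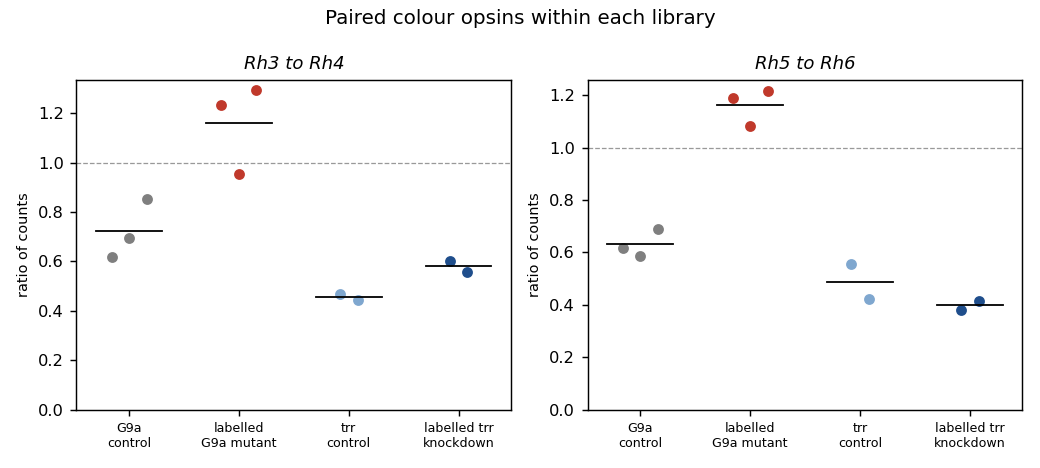
Ratio of *Rh3* to *Rh4* counts (left) and of *Rh5* to *Rh6* counts (right) within each of the 10 libraries (points; black line, arithmetic mean of the group; dashed line, a ratio of 1). In both panels the 3 libraries labelled *G9a* mutant lie above the 3 *G9a* controls, and the *trr* libraries lie below all 6.

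Of the 7 genes for rhodopsin maturation and chromophore supply, 2 were called higher in heads labelled *G9a* mutant. *ninaA*, a cyclophilin chaperone that helps rhodopsin leave the endoplasmic reticulum, was at 100.1, 105 and 115 CPM in the *G9a* controls and at 144, 192 and 211 CPM in heads labelled *G9a* mutant (log2 fold change 0.74, SE 0.14, adjusted p = 0.013). The groups did not overlap. Its *trr* values were 65.4 and 87.9 CPM in the controls and 86.4 and 87.3 CPM in heads labelled *trr* knockdown. *ninaG*, an oxidoreductase needed to form the hydroxylated chromophore of flies, was at 32.1, 32.9 and 30.1 CPM in the *G9a* controls and 44.5, 52.4 and 49.5 CPM in heads labelled *G9a* mutant (log2 fold change 0.59, SE 0.10, adjusted p = 0.0085). In heads labelled *trr* knockdown it was at 12.2 and 14.8 CPM against 26.7 and 20.7 CPM in their controls, below both of them and with the lowest log2 fold change of the 36 genes in that comparison (log2 fold change -0.80, SE 0.17, adjusted p = 0.097). *ninaG* therefore lay in opposite directions in the 2 experiments, above every control in one and below every control in the other.

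*ninaB*, the enzyme that cleaves carotenoids to retinal, was at 70.6, 76.5 and 57.9 CPM in the *G9a* controls and 88.0, 116 and 96.5 CPM in heads labelled *G9a* mutant, without overlap but under 1.5-fold (log2 fold change 0.52, SE 0.13, adjusted p = 0.045). It was at 102 and 76.4 CPM in the *trr* controls and 63.6 and 65.3 CPM in heads labelled *trr* knockdown, below both controls (log2 fold change -0.46, SE 0.13, adjusted p = 0.16). *ninaD* and *santa-maria* encode scavenger receptors that take up carotenoids, the first known from the gut and the second from cells of the brain. *ninaD* was scarce, with counts of 74, 59 and 57 in the *G9a* controls and of 19, 1 and 12 in heads labelled *G9a* mutant. These were the lowest 3 of the 10 libraries, and its log2 fold change was the lowest of the 36 in that comparison (log2 fold change -2.77, SE 0.79, adjusted p = 0.064). *ninaD* was called under 7 of the 15 other settings. With the replicate number as a block, 1 of these, edgeR gave a log2 fold change of -3.03 (adjusted p = 0.016). That block rests on a pairing inferred from these same libraries. Its level was 2.25 and 1.47 CPM in the *trr* controls and 1.53 and 1.71 CPM in heads labelled *trr* knockdown. *santa-maria* was at 20.1, 20.3 and 14.8 CPM in the *G9a* controls and 14.9, 12.3 and 9.18 CPM in heads labelled *G9a* mutant, where the highest of the second group lay just above the lowest of the first (log2 fold change -0.64, SE 0.20, adjusted p = 0.089). *santa-maria* was called under 4 of the 15 other settings, the same block among them (log2 fold change -0.65, adjusted p = 0.019). *santa-maria* was at 36.4 and 32.5 CPM in the *trr* controls and 35.4 and 34.9 CPM in heads labelled *trr* knockdown.

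*Pdh*, a retinol dehydrogenase of pigment cells, was at 1678, 1413 and 1202 CPM in the *G9a* controls and 1810.2, 1228 and 1179 CPM in heads labelled *G9a* mutant, with overlapping groups. It was at 1278 and 1672 CPM in the *trr* controls and at 2106 and 2107 CPM in heads labelled *trr* knockdown, the highest log2 fold change of the 36 there but short of the threshold (log2 fold change 0.51, SE 0.16, adjusted p = 0.18). *pinta*, a retinoid-binding protein of pigment cells, was not called in either experiment, with log2 fold changes of -0.024 in the *G9a* comparison and -0.22 in the *trr* comparison.

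**Figure D3:**
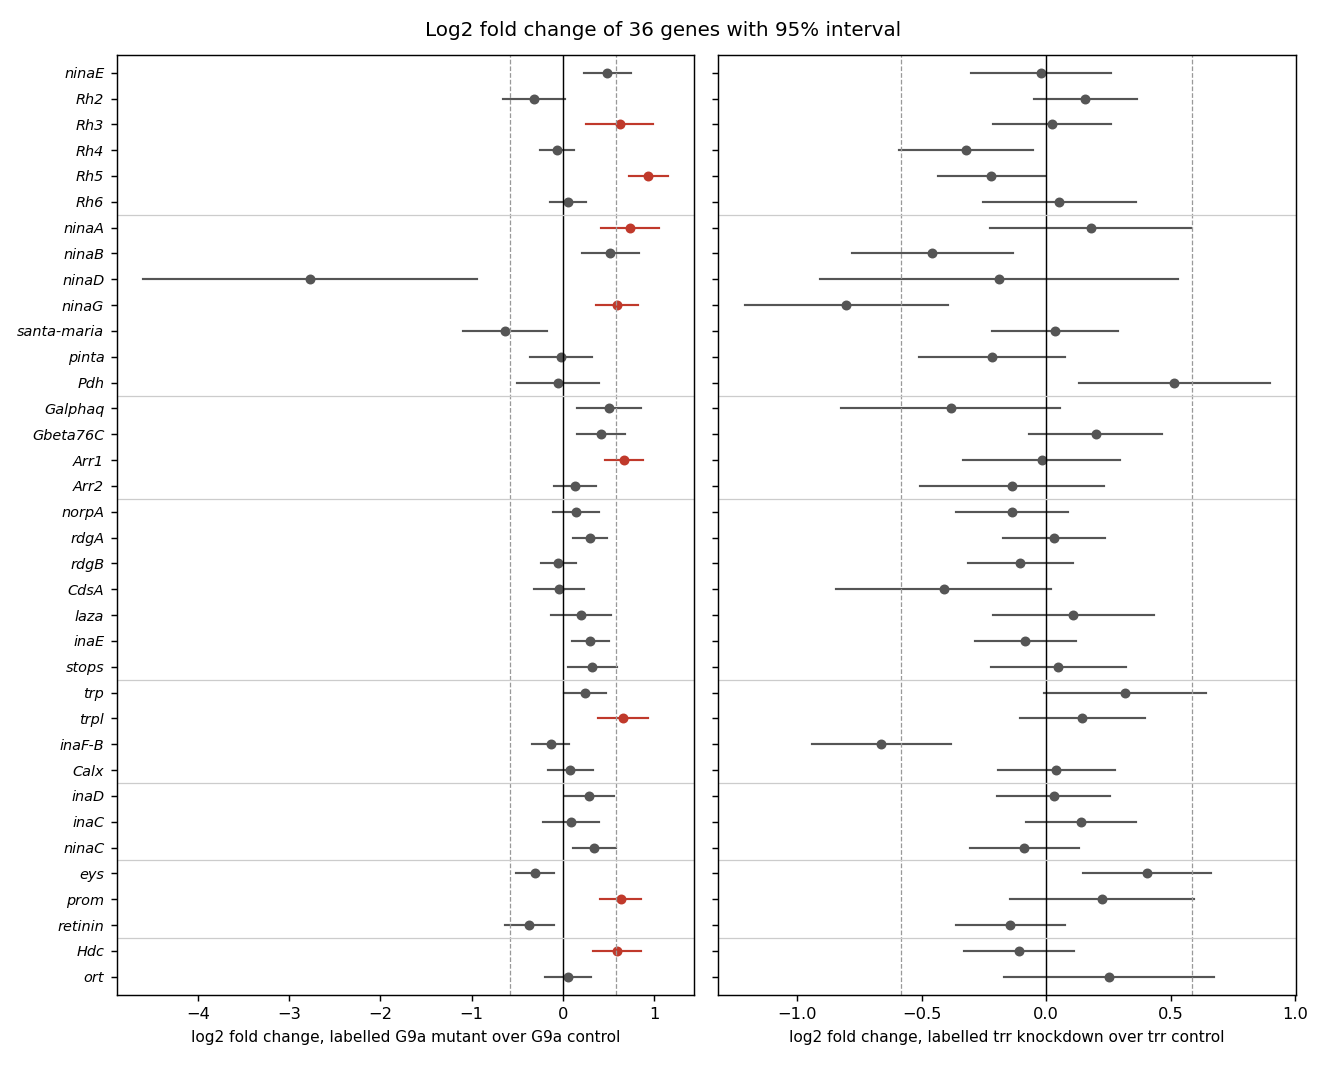
Log2 fold change with its 95% interval (x axes, which differ in scale) for the 36 genes, grouped by role from the rhodopsins at the top to histamine transmission at the bottom, in the *G9a* comparison (left) and the *trr* comparison (right). Red marks the 8 genes called, all in the *G9a* comparison and all higher, and dashed lines mark the 1.5-fold threshold.

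Of the 4 matched genes of the G protein and the arrestins, 1 was called. *Arr1*, 1 of the 2 visual arrestins, was at 4891, 5416 and 5326 CPM in the *G9a* controls and 7859, 9138 and 8415 CPM in heads labelled *G9a* mutant, with every library labelled mutant well above the controls (log2 fold change 0.67, SE 0.092, adjusted p = 0.0032). *Arr1* was at 9306 and 11025 CPM in the *trr* controls and 9947 and 10105 CPM in heads labelled *trr* knockdown, between the controls. The other visual arrestin, *Arr2*, had a log2 fold change of 0.13 in the *G9a* comparison, with a 95% interval of -0.099 to 0.36. The ratio of *Arr1* to *Arr2* counts, computed after their values were seen, was 0.354, 0.396 and 0.446 in the *G9a* controls and 0.585, 0.618 and 0.526 in heads labelled *G9a* mutant, and is given with no test. *Galphaq* and *Gbeta76C*, 2 subunits of the visual G protein, had log2 fold changes of 0.51 (adjusted p = 0.075) and 0.42 (adjusted p = 0.057) in the *G9a* comparison, and -0.38 and 0.20 in the *trr* comparison.

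Of the 7 genes of phospholipase C and the lipid cycle, 0 were called in the *G9a* or the *trr* comparison by edgeR or DESeq2, with 3 and 0 of them at an unadjusted p-value under 0.05 in edgeR. *norpA*, the phospholipase C itself, had a log2 fold change of 0.14 in the *G9a* comparison (95% interval -0.11 to 0.39) and -0.14 in the *trr* comparison (95% interval -0.36 to 0.086). *rdgA*, the diacylglycerol kinase that removes the lipid product of that cleavage, was at 1553, 1505 and 1424 CPM in the *G9a* controls and 1853, 1898 and 1881 CPM in heads labelled *G9a* mutant, without overlap and under the fold threshold (log2 fold change 0.30, SE 0.083, adjusted p = 0.06). It was at 874 and 854 CPM in the *trr* controls and 891 and 870.2 CPM in heads labelled *trr* knockdown. All 4 *trr* libraries thus lay below all 6 *G9a* libraries. The remaining 5, the phosphatidylinositol transfer protein *rdgB*, the CDP-diacylglycerol synthase *CdsA*, the phosphatidic acid phosphatase *laza*, the diacylglycerol lipase *inaE* and *stops*, which is needed to keep the phospholipase protein at its level, ranged from -0.053 for *rdgB* to 0.32 for *stops* in the *G9a* comparison. In the *trr* comparison they ranged from -0.41 for *CdsA* to 0.11 for *laza*.

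Of the 4 genes for channels and calcium exchange, *trpl* was called. It encodes the TRPL channel, 1 of the 2 light-gated channels, and was at 2288, 2794 and 2690.2 CPM in the *G9a* controls and 3630.1, 4358 and 4579.7 CPM in heads labelled *G9a* mutant, without overlap (log2 fold change 0.66, SE 0.12, adjusted p = 0.011). Its level was 2999.6 and 3242 CPM in the *trr* controls and 3489 and 3401 CPM in heads labelled *trr* knockdown. *trp*, the other channel, had a log2 fold change of 0.24 (adjusted p = 0.18) in the *G9a* comparison and 0.32 (adjusted p = 0.27) in the *trr* comparison. The ratio of *trpl* to *trp* counts, also computed after their values were seen and given with no test, was 0.644, 0.758 and 0.808 in the *G9a* controls and 0.951, 1.02 and 0.975 in heads labelled *G9a* mutant. *inaF-B* encodes a small membrane protein that the TRP channel needs. Its level was 109, 96.6 and 99.0 CPM in the *G9a* controls and 92.8, 91.8 and 99.3 CPM in heads labelled *G9a* mutant, with overlap. It was at 180.4 and 158 CPM in the *trr* controls and 96.9 and 116 CPM in heads labelled *trr* knockdown, well below both controls (log2 fold change -0.66, SE 0.11, adjusted p = 0.071). *inaF-B* overlaps *CG15221* and the other *inaF* genes, so its counts may miss reads set aside as ambiguous. The strand setting of the counting, on which this depends, is not given in the sources used here. *Calx*, the sodium/calcium exchanger, was at 484, 419.5 and 404 CPM in the *G9a* controls and 449, 517 and 451 CPM in heads labelled *G9a* mutant. It was at 259 and 282 and 276 and 279 CPM in the 2 *trr* groups, where again the values of the groups overlapped.

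The 3 matched genes of the signalplex, a scaffolded complex that holds the channel, the phospholipase and a kinase together, were not called by either tool. The log2 fold changes in the *G9a* comparison were 0.29 for the scaffold *inaD*, 0.087 for the protein kinase C *inaC* and 0.34 for *ninaC*, a myosin with a kinase domain. In the *trr* comparison they lay between -0.088 and 0.14.

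The 3 matched genes for structure differed in direction. *prom*, the fly prominin of the rhabdomere membrane, was at 282, 278 and 268 CPM in the *G9a* controls and 405, 419.6 and 488 CPM in heads labelled *G9a* mutant, without overlap (log2 fold change 0.63, SE 0.095, adjusted p = 0.0051). It was at 222 and 288 CPM in the *trr* controls and 301 and 294 CPM in heads labelled *trr* knockdown. *eys*, a secreted protein that keeps the rhabdomeres apart, lay lower in every library labelled mutant, with 1199, 1207 and 1207 CPM in the *G9a* controls and 909, 1050.2 and 1035 CPM in heads labelled *G9a* mutant (log2 fold change -0.31, SE 0.088, adjusted p = 0.067). Its *trr* values went the other way, with 407 and 453 CPM in the controls and higher values, 581 and 555 CPM, in heads labelled *trr* knockdown (log2 fold change 0.40, SE 0.11, adjusted p = 0.13). *retinin*, a protein of the corneal lens, was at 2858, 2667 and 2701 CPM in the *G9a* controls and 2422, 1876 and 2217 CPM in heads labelled *G9a* mutant, each of them below every control (log2 fold change -0.37, SE 0.12, adjusted p = 0.088). Its level was 1152 and 1183 CPM in the *trr* controls and 1061 and 1048 CPM in heads labelled *trr* knockdown.

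*Hdc*, the enzyme that makes histamine, the transmitter of photoreceptors, was at 92.1, 109.6 and 107 CPM in the *G9a* controls and 136, 173 and 168 CPM in heads labelled *G9a* mutant (log2 fold change 0.59, SE 0.11, adjusted p = 0.014). The lowest library labelled mutant was above the highest control. It was at 89.8 and 93.7 CPM in the *trr* controls and 84.3 and 85.6 CPM in heads labelled *trr* knockdown (log2 fold change -0.11, SE 0.090, adjusted p = 0.52). *ort*, the histamine-gated chloride channel of the neurons that receive this signal, had log2 fold changes of 0.054 (95% interval -0.20 to 0.30) and 0.25 (95% interval -0.17 to 0.67) in the *G9a* and the *trr* comparison.

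**Figure D4:**
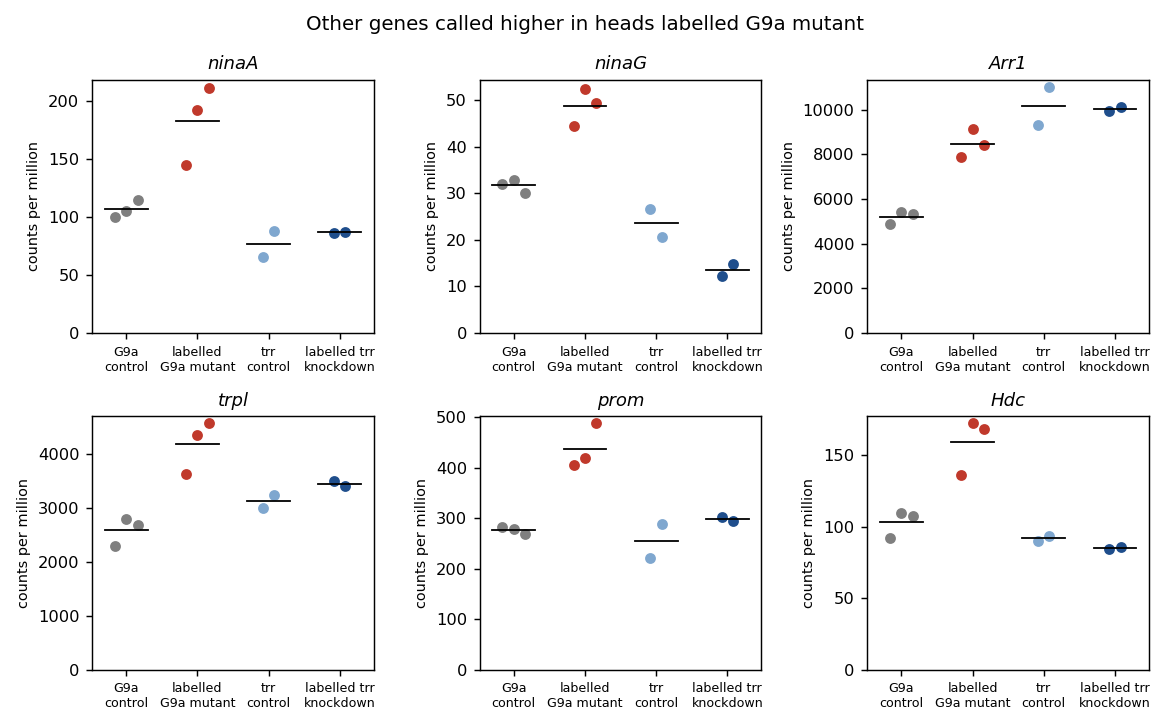
Levels in CPM (y axes, linear from 0) of the 6 genes other than rhodopsins that were called higher in the libraries labelled *G9a* mutant, in each of the 10 libraries (points; black line, mean of the group). In every panel the 3 libraries labelled *G9a* mutant lie above the 3 *G9a* controls, and in the panel of *ninaG* the libraries labelled *trr* knockdown lie below the *trr* controls.

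Markers of other cells and the make-up of the reads also differed between the *G9a* groups. The summed level of 9 neuronal markers was 6641 to 7034 CPM in the *G9a* controls and 7048 to 7569 CPM in heads labelled *G9a* mutant, narrowly without overlap. Of the 9, 0 were called by edgeR or DESeq2 and 1 had an unadjusted p-value under 0.05 in edgeR. The 6 glial markers summed to 1938 to 2412 CPM and 1895 to 2127 CPM. All 6 had a log2 fold change below 0 (median -0.34), with 4 at an unadjusted p-value under 0.05 in edgeR. The adjusted p-value was under 0.05 for 2, of which 1, *alrm*, was called lower (log2 fold change -1.62). The sum of 9 fat body markers was 3283 to 7652 CPM in the *G9a* controls and 2290 to 3344 CPM in heads labelled *G9a* mutant. *Lsp2*, *apolpp* and *to* fell among them, while *Npc2d* was at 0 in 5 of these 6 libraries. Of the 9, 7 had a log2 fold change below 0 and 2 had one above 0. The 6 matched muscle markers summed to 8442 to 8814 CPM and 6782 to 7531 CPM, with *Act88F* called lower and *TpnC4* at 0 in 5 of the 6. The muscle marker *fln* lay the other way (log2 fold change 0.73, SE 0.19, adjusted p = 0.051) and was called higher by DESeq2. The sum of 14 eye pigment genes was 719.9, 741.8 and 733 CPM in the *G9a* controls and 791, 822 and 853 CPM in heads labelled *G9a* mutant, without overlap, and 10 of the 14 had a log2 fold change above 0 (median 0.14). *roX1* and *roX2*, dosage compensation RNAs of males, summed to 673 to 905 CPM in the *G9a* controls and 1105 to 1362 CPM in heads labelled *G9a* mutant. Their log2 fold changes were 0.58 and 0.83, both at an unadjusted p-value under 0.05 in edgeR and 1 at an adjusted one. By edgeR 0 of the 2 were called, while DESeq2 called *roX2* higher. Reads that were not aligned made up 12.2 to 20.4% of the control files and 7.86 to 9.30% of the files labelled mutant. The part of these in the results above was not tested. With another quantity, the share of reads outside genes, as a covariate, 5 of the 8 genes were called and *Rh3*, *ninaG* and *Hdc* were not. Their log2 fold changes were then 0.63, 0.58 and 0.58, against 0.62, 0.59 and 0.59 without it, so that *ninaG* (adjusted p = 0.014) and *Hdc* (adjusted p = 0.025) missed only the fold threshold and *Rh3* only the adjusted p-value (0.053).

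In the *trr* experiment 0 of the 36 genes were called by edgeR's quasi-likelihood test. Of the 11416 genes tested, 0.710% were called higher and 0.324% lower. At shares this low, 0 of 36 does not set these genes apart from all genes. Of the 36, 7 had an unadjusted p-value under 0.05, against 19.2% of all genes. Both libraries labelled knockdown were above both controls for 8 of the 36 genes, against 29.7% of all genes, and below both for 14, against 27.4%. Of the 36, 18 had a log2 fold change above 0 and 18 below, and the median was 0.0018. All but 2 of the 36 had a log2 fold change smaller in size than the threshold of 0.585, the exceptions being *ninaG* and *inaF-B*. Both of these were called lower by DESeq2 (log2 fold changes -0.80 and -0.65, adjusted p = 0.0065 and 0.00027) and when all 10 libraries shared 1 estimate of the spread (adjusted p = 0.026 and 0.025). Without the second *trr* control, log2 fold changes were -0.62 for *ninaB*, -0.95 for *ninaG*, -0.63 for *Galphaq*, -0.655 for *CdsA*, -0.73 for *inaF-B* and 0.76 for *Pdh*. Without the first control they were -0.65 for *ninaG* and -0.60 for *inaF-B*. Such a fit leaves 1 library in a group, which is assumed to vary like the others, so its calls are not read. Fat body markers summed to 9522 and 7297 CPM in the *trr* controls and 5363 and 5561 CPM in heads labelled *trr* knockdown, with the yolk protein genes *Yp1* and *Yp3* called lower. Of the 7 tested fat body markers 3 had a log2 fold change above 0, among them *Lsp2* (0.098) and *apolpp* (0.10). Muscle markers summed to 2623 and 2967 CPM in the *trr* controls and 3511 and 3358 CPM in heads labelled *trr* knockdown. All 5 tested muscle markers had a log2 fold change above 0, with 0 called by edgeR or DESeq2 and 3 at an unadjusted p-value under 0.05, and *roX1* (-0.29) and *roX2* (-0.44) lay below 0, also not called. The part of these was not tested.

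The effects in the 2 experiments were then compared gene by gene in 1 fit over all 10 libraries, as the *trr* effect minus the *G9a* effect. Of the 36 genes, 6 differed by over 1.5-fold with an adjusted p-value under 0.05, against 9.26% of the 12871 genes tested. For 5 of them the *trr* effect was the lower one: *ninaG* (difference -1.39, SE 0.18, adjusted p = 0.0014), *Rh5* (difference -1.15, SE 0.13, adjusted p = 0.00065), *ninaB* (difference -0.97, SE 0.21, adjusted p = 0.017), *Hdc* (difference -0.70, SE 0.16, adjusted p = 0.022) and *Arr1* (difference -0.68, SE 0.16, adjusted p = 0.021). For *eys* it was the higher one (difference 0.71, SE 0.14, adjusted p = 0.01). All 6 stayed called under the other normalizations, filters and tests. With 1 *G9a* library left out, only *Hdc* was lost, without the second library labelled mutant. Leaving out a *trr* library leaves 1 in a group, so calls in those fits are not read. With any 1 of the 10 libraries left out, the differences ranged over -1.54 to -1.24 for *ninaG*, -1.21 to -1.08 for *Rh5* and 0.60 to 0.83 for *eys*. Since the experiments also differ in driver and genetic background, what sets the differences cannot be told apart.

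More genes were called between the control heads of the 2 experiments than in either experiment, over all genes as well as among these 36. Between the *trr* controls and the *G9a* controls, 12 of the 36 genes were called (33.3%). Of these, 8 were higher in the *trr* controls, against 13.7% of the 11821 genes tested. The other 4 were lower, a share close to the 10.9% of all genes. The 8 included 5 of the 6 rhodopsins, *Rh2* (log2 fold change 1.21, SE 0.13, adjusted p = 0.00026), *Rh6* (log2 fold change 0.98, SE 0.14, adjusted p = 0.0014), *ninaE* (log2 fold change 0.87, SE 0.15, adjusted p = 0.0036), *Rh4* (log2 fold change 0.75, SE 0.13, adjusted p = 0.0032) and *Rh5* (log2 fold change 0.59, SE 0.12, adjusted p = 0.0069). *Rh3* was not called (log2 fold change 0.089, SE 0.16, adjusted p = 0.7). The others of the 8 were *Arr1* (log2 fold change 1.03, SE 0.14, adjusted p = 0.0011), *santa-maria* (log2 fold change 0.96, SE 0.17, adjusted p = 0.0036) and *inaF-B* (log2 fold change 0.79, SE 0.12, adjusted p = 0.0017). The 4 lower genes were *eys* (log2 fold change -1.42, SE 0.13, adjusted p = 0.00016), *retinin* (log2 fold change -1.17, SE 0.13, adjusted p = 0.00038), *rdgA* (log2 fold change -0.73, SE 0.12, adjusted p = 0.003) and *Calx* (log2 fold change -0.63, SE 0.14, adjusted p = 0.011). The median over the 36 was -0.068, and over all genes it was -0.017. *Rh5* lay close to the fold threshold and was not called with RLE factors, with another filter, by DESeq2 or without the first *G9a* control. *Calx* was not called without the first *G9a* control. Without the first *trr* control, which leaves 1 library in a group, log2 fold changes were 0.57 for *Rh5* and -0.53 for *Calx*. These control libraries are also those of the other comparisons, so the values are not independent of theirs. The groups differ in *Elav-Gal4*, *dicer2*, the *attP2* chromosome and the experiment, which cannot be told apart. Muscle markers summed to 2623 and 2967 CPM in the *trr* controls against 8442 to 8814 CPM in the *G9a* controls. Of the 5 tested, 4 were called lower in the *trr* controls and 1, *fln*, was called higher (log2 fold change 1.37). Glial markers summed to 3709.7 and 4544 CPM against 1938 to 2412 CPM, and 2 of the 6, *Gs2* and *alrm*, were called higher in the *trr* controls. The RNAs *roX1* and *roX2* were called higher in the *trr* controls as well (log2 fold changes 1.59 and 2.13). The part of these was not tested.

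**Figure D5:**
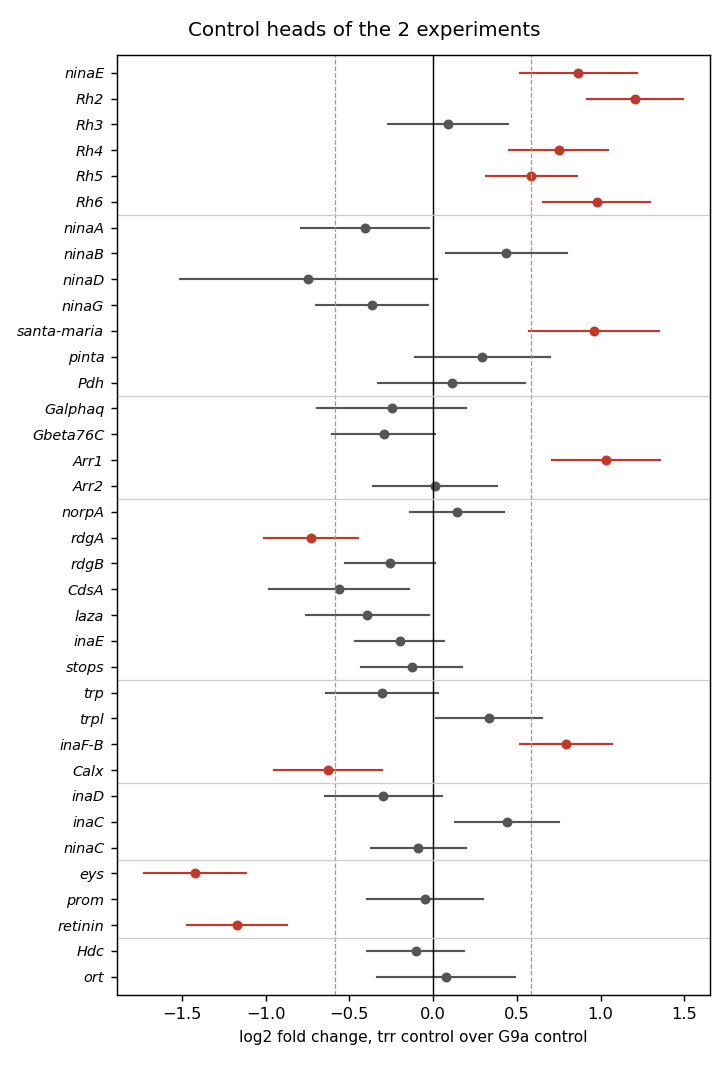
Log2 fold change of the *trr* controls over the *G9a* controls with its 95% interval (x axis) for the 36 genes, grouped by role in the same order as above. Red marks the 12 genes called, and 5 of the 6 rhodopsins at the top lie to the right of 0 in red.

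Genes of the same pathway outside the 36 were read from lists chosen by role. Of 23 further phototransduction genes, 20 were matched and 18 tested in each comparison, and *Xport-A* and *Xport-B*, which overlap each other, were at 0 in all libraries. In the *G9a* comparison 1 of the 18 was called, *Rh7*, an opsin of brain neurons, which fell from 53.0, 42.7 and 40.7 CPM to 21.1, 24.1 and 22.6 CPM (log2 fold change -1.04, SE 0.13, adjusted p = 0.0021). *Rh7* thus lay in the opposite direction to *Rh3* and *Rh5*. In the *trr* comparison 0 of the 18 were called by edgeR or DESeq2, with 5 at an unadjusted p-value under 0.05. Between the control groups, the receptor kinase *Gprk1* was higher in the *trr* controls (log2 fold change 2.44, SE 0.23, adjusted p = 0.00014) and the IP3 receptor *Itpr* lower (log2 fold change -0.77, SE 0.12, adjusted p = 0.002). Among the 4 tested genes of histamine and carcinine recycling, *tan* (*t*), which frees histamine from carcinine, had a log2 fold change of 0.56 in the *G9a* comparison, just under the fold threshold (adjusted p = 0.023). *tan* was lower in the *trr* controls than in the *G9a* controls (log2 fold change -1.24, SE 0.12, adjusted p = 0.00017). *HisCl1*, a histamine-gated chloride channel, was called higher in the *G9a* comparison by DESeq2 but not by edgeR (log2 fold change 0.59, SE 0.19, adjusted p = 0.087).

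All 3 genes of the corneal lens list were measured. In the *G9a* comparison they differed in direction, while in the *trr* comparison all 3 had a log2 fold change above 0. *Cpr72Ec*, a cuticle protein of the lens, was at 235, 194 and 158 CPM in the *G9a* controls and rose to 575, 389.6 and 483 CPM in heads labelled *G9a* mutant (log2 fold change 1.27, SE 0.19, adjusted p = 0.0045). It was also called higher in the *trr* experiment, from 379.7 and 407 CPM in the controls to 657 and 682 CPM in heads labelled *trr* knockdown (log2 fold change 0.77, SE 0.096, adjusted p = 0.036). *Crys*, drosocrystallin, was at 115, 80.4 and 99.7 CPM in the *G9a* controls and fell to 65.9, 60.4 and 60.3 CPM in heads labelled *G9a* mutant (log2 fold change -0.69, SE 0.14, adjusted p = 0.017). Its level was 4.94 and 6.08 CPM in the *trr* controls and 12.2 and 12.0 CPM in heads labelled *trr* knockdown, far below the *G9a* experiment. The difference within the *trr* experiment (log2 fold change 1.13, SE 0.18, adjusted p = 0.062) was called by DESeq2 but not by edgeR's main test. Of the 17 tested regulators of the eye and its photoreceptors, 0 were called in the *G9a* and the *trr* comparison by edgeR or DESeq2, with 6 and 2 at an unadjusted p-value under 0.05. In the *G9a* comparison 12 of the 17 had a log2 fold change above 0, and *salr* (0.54), *Pph13* (0.50) and *melt* (0.46) passed on the adjusted p-value alone. Between the control groups, *so*, *oc* and *pros* were lower and *hth* and *sv* higher in the *trr* controls, with log2 fold changes from -0.87 to 1.44. Of 14 eye pigment genes, *v*, which encodes an enzyme of ommochrome synthesis, was called lower in heads labelled *G9a* mutant (log2 fold change -0.87, SE 0.14, adjusted p = 0.0068), and 0 were called in the *trr* comparison by edgeR, with 1 at an unadjusted p-value under 0.05, and 1, *cn*, by DESeq2.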

How the data were processed

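RNA-seq of fly heads was used. Per the labels and the methods of the study, the authors mapped reads of 36 bp with BWA 0.6.1 to the dm3 genome, kept unique matches and deposited whole-number counts per gene from HTSeq-count, without normalization and with the strand setting not given in the sources used here. The 5 summary lines per file did not enter library totals, and reads outside genes were 9.29 to 18.0% of a file. Symbols and overlaps came from a Release 6 table, whose coordinates were not used. The binding-site list, in dm3 coordinates, was not used, and no sequence table was used, so the planned search for promoter motifs was not run.

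Counts were tested in R 4.3.3 with edgeR 4.0.16 (TMM, quasi-likelihood test, Benjamini-Hochberg adjustment over all genes with at least 10 counts summed). Each experiment was fitted alone, the 2 control groups in a fit of their own and the difference of effects over all 10 libraries. The fits other than the difference were also run on simulated counts of independent libraries, scored by the adjusted p-value alone without the fold threshold. SE is the size of the log2 fold change divided by the square root of F. DESeq2 1.42.0 was an alternative, beside RLE factors, other filters, a replicate block, 1 fit over all libraries and leaving out each library. Same-numbered *G9a* libraries deviated together (correlations 0.25, 0.18 and 0.44), which was taken as pairing, although neither labels nor methods name a shared batch. Control 1 with mutant 2 (0.22) and control 2 with mutant 1 (0.13) did so too, and the remaining pairs were at -0.35 to -0.19. The pairing of libraries 1 and 2 by number is thus not singled out by these values. The genes given in full were the rhodopsins, those called in any comparison and the highest and lowest of each comparison. Members and lists were chosen with earlier results of these data known. P-values measure the spread between libraries of a group, which was narrow for the 2 libraries labelled *trr* knockdown. Whether those 2 come from separate pools of heads was not tested. Intervals rest on the model's spread, with 2 or 3 libraries a group.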

Additional observations from a re-analysis of the deposited data

Results flagged for a closer look

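In 6 genes the effect differed between the 2 experiments when the difference itself was tested over all 10 libraries with edgeR (the *trr* effect minus the *G9a* effect, on the log2 scale). The difference was -1.39 for *ninaG*, -1.15 for *Rh5*, -0.97 for *ninaB*, -0.70 for *Hdc*, -0.68 for *Arr1* and 0.71 for *eys*. The same test called 9.26% of the 12871 genes tested. In all of the 6 but *Arr1*, the libraries labelled for loss lay on opposite sides of their controls in the 2 experiments, without overlap. The 6 were picked for a large difference in these same libraries, so the opposite sides largely follow from that choice and are no separate evidence. Lying wholly above or below the controls was also common among all genes, with *trr* (29.7 and 27.4%) and with *G9a* (17.0 and 15.1%).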

How the results depend on the processing

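The count of genes called among the 36 in the *G9a* comparison was 8, between 8 and 10 under the other normalizations, filters and tests, and 5 with the share of reads outside genes as a covariate, where the 3 genes lost kept log2 fold changes of 0.63 (*Rh3*), 0.58 (*ninaG*) and 0.58 (*Hdc*). Leaving out 1 library gave 4 to 9, with 4 without the first control, 5 without the second control and 5 without the third library labelled mutant. In the *trr* comparison the count was 0, but 2 under DESeq2, under the replicate block and in the fit over all 10 libraries. Leaving out 1 library there leaves 1 in a group, so those counts are not read. The *trr* libraries share only a number (correlation -0.060), and the block raised the calls over all genes there from 118 to 819. For the difference of effects the count was 6, and the same 6 stayed called under the other normalizations, filters and tests, with *ninaD* and *Galphaq* added by DESeq2. Leaving out 1 *G9a* library lost only *Hdc*, without the second library labelled mutant. Leaving out a *trr* library leaves 1 in a group there too, so those counts are not read. Between the controls the count was 12, and 10 to 14 under the alternatives that leave at least 2 libraries in each group. The block changed no other call of these genes in the *G9a* comparison, beside *ninaD* and *santa-maria*, and left the 6 differences of effects called.

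The sign of some small effects turned when 1 library was left out. In the *trr* comparison the log2 fold changes then ranged over -0.062 to 0.11 for *Rh3*, -0.11 to 0.22 for *Rh6*, -0.053 to 0.45 for *ninaA*, -0.44 to 0.10 for *ninaD*, -0.055 to 0.14 for *Calx*, -0.12 to 0.075 for *ninaE*, -0.014 to 0.080 for *santa-maria* and -0.17 to 0.14 for *Arr1*. In the *G9a* comparison they ranged over -0.31 to 0.079 for *Pdh*, and between the controls over -0.0085 to 0.22 for *Rh3*, -0.15 to 0.33 for *Pdh* and -0.30 to 0.17 for *prom*. The cause was not tested. None of these effects was called. The log2 differences of the opsin ratios kept their sign under all alternatives run. Depth limits *ninaD*, with 1 to 74 counts per library. The search for promoter motifs was not run.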
